A study of Mus musculus with 6 samples.

Results

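The 42 genes described here encode the cytosolic and mitochondrial heat shock proteins of the mouse, their closest co-chaperones and the transcription factors that switch them on. They were chosen by name for what they encode, and earlier results of these data were known when they were chosen. They are 42 of 36047 genes in the files and 42 of 13451 genes with enough counts to be tested. By role, 16 are cytosolic genes known to be induced by heat shock factor 1 (HSF1), 10 are cytosolic genes with mainly constitutive expression, 7 encode subunits of the cytosolic chaperonin CCT, and 5 encode mitochondrial chaperones. The other 4 are the heat shock factors Hsf1 and Hsf2 and the genes Serpinh1 and Hspa13, whose products reside in the endoplasmic reticulum or its microsomes.

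Heat shock proteins bind unfolded or partly folded polypeptides and use ATP and a set of partner proteins to fold them, keep them soluble or pass them on. When unfolded proteins accumulate in the cytosol, HSF1 is released from chaperones, forms trimers and binds heat shock elements, which are alternating GAA and TTC units in the promoters of its targets. Mitochondria have their own chaperones, made from nuclear genes: an Hsp70 that pulls in and folds imported proteins, the Hsp60 and Hsp10 folding chamber, and an Hsp90. Cigarette smoke carries aldehydes and oxidants that can damage proteins, which is why chaperone genes are of interest in epithelial cells exposed to it.

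RNA-seq was run on polyA RNA of MLE-12, an epithelial line from mouse lung that arose from a tumour driven by a viral large T antigen under a surfactant protein C promoter. All libraries carried the genotype label WT. In 3 libraries the medium had received 5% cigarette smoke extract (CSE, optical density 2.0) when the cells covered 30% of the dish, in 3 libraries the same volume of phosphate-buffered saline (PBS), and in both groups cells were harvested after 24 h. Separate cultures are not stated for the libraries of a group, and the p-values therefore cover only library-to-library spread, part or all of which may be technical.

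The libraries held 12093009 to 24050167 estimated counts, and 3 counts corresponded to 0.125 to 0.248 CPM (counts scaled to library size). The extraction text names lung tissue, so markers of lung cell types were summed in TPM, the length-corrected unit of transcript abundance. The 6 epithelial markers summed to 1281 to 1396 TPM in PBS and 710.3 to 804 TPM in CSE, with Krt18 under 1 TPM in every library. Most of that sum was Krt19, at 1005 TPM in PBS and 493 TPM in CSE on average. Krt19, Krt8 and Cdh1 were called lower in CSE, while Epcam and Nkx2-1 were not called (log2 change of Nkx2-1 -0.11, adjusted p 0.423 in edgeR). The 5 markers of alveolar type 2 cells summed to only 5.40 to 6.25 TPM in PBS and 3.01 to 3.29 TPM in CSE, with Sftpa1 and Lamp3 under 1 TPM throughout. The 4 alveolar type 1 markers summed to 687 to 742 TPM in PBS and 397 to 450.2 TPM in CSE. The 4 endothelial markers summed to 1.76 to 2.28 TPM in PBS and 0.861 to 1.32 TPM in CSE, with Cdh5, Kdr and Emcn under 1 TPM. The 5 leukocyte markers summed to 4.19 to 6.995 TPM in PBS and 4.20 to 6.63 TPM in CSE, with Ptprc, Itgam and Cd3e under 1 TPM. Of these, Csf1r was called higher in CSE (log2 change 0.94, adjusted p 0.0147 in edgeR) and Cd68 was not called. The 4 fibroblast markers summed to 868 to 1126 TPM in PBS and 477 to 544 TPM in CSE, with Col1a2 under 1 TPM. Most of that sum was Dcn, at 954 TPM in PBS and 507 TPM in CSE on average, and Pdgfra of the same list was called higher in CSE (log2 change 0.84, adjusted p 0.0013 in edgeR). All these sums but the leukocyte sum, which overlapped, were lower in every CSE library than in any PBS library, and in bulk RNA fewer cells of a type and less RNA per cell cannot be told apart. Their part in the chaperone results was not tested.

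The 42 genes spanned more than 3 orders of magnitude in level (the plot of TPM by gene), compared here in TPM because it accounts for transcript length. Over all 6 libraries 2 genes had a mean of at least 1000 TPM, 20 lay between 100 and 1000 TPM, 16 between 10 and 100 TPM, and 4 below 10 TPM. Hsp90ab1, the constitutive cytosolic Hsp90, was the most abundant at 3509 ± 358 TPM in PBS (SD, n = 3) and ranked 22 among all genes tested. Hspa8, the constitutive cytosolic Hsp70 also called Hsc70, followed at 2622 ± 68.6 TPM. The stress-inducible Hsp90aa1 came next at 646 ± 144 TPM, ahead of Cct7, a CCT subunit, at 621 ± 29.0 TPM, and those levels overlapped. At the other end Hspa1b, a stress-inducible Hsp70, stood at 14.9 ± 1.88 TPM and its near-identical neighbour Hspa1a at 1.06 ± 0.33 TPM, the lowest level of the 42 genes. Of the 41 neighbouring pairs in this order, 27 overlapped in the PBS libraries and 14 did not, so only the coarse order is resolved. Summed over the 42 genes, the level was 13102 ± 207 TPM in PBS and 14131 ± 520 TPM in CSE, which is 1.31% and 1.41% of all TPM.

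**Figure D1:**
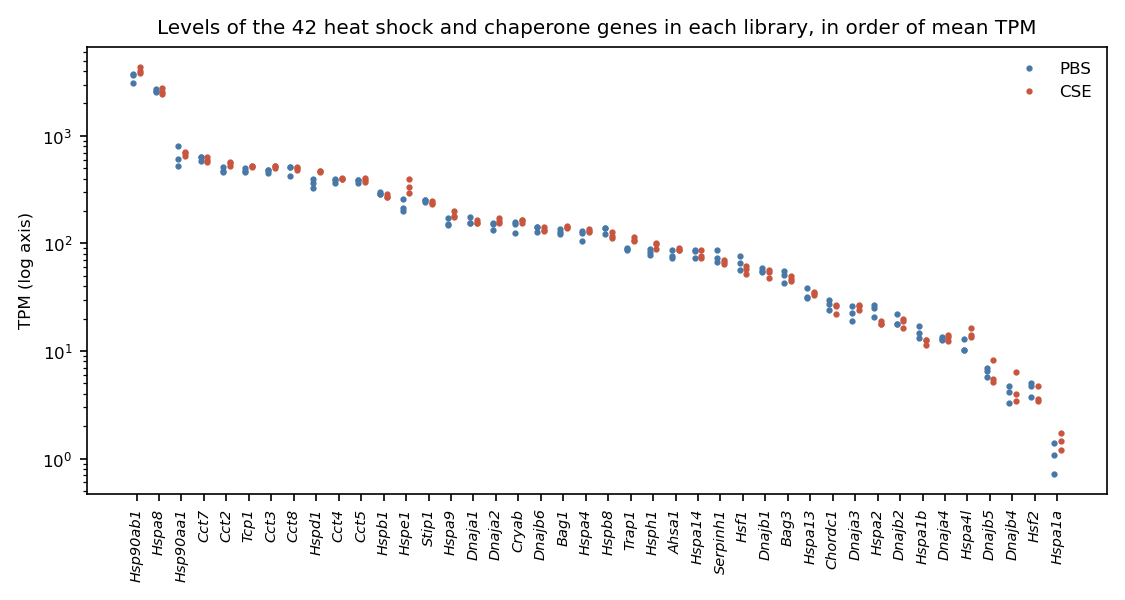
TPM of each of the 42 genes in each library (log axis), blue for the 3 PBS and red for the 3 CSE libraries, ordered by mean TPM. Hsp90ab1 and Hspa8 lie above 1000 TPM and Hspa1a lies near 1 TPM, and for most genes the colours overlap at this scale.

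The comparison of CSE with PBS asked whether genes of the cytosolic heat shock response and of the mitochondrial chaperone system changed in cells exposed to smoke extract for 24 h. Mitochondrial chaperone genes were higher in CSE: Hspd1, Hspe1, Hspa9 and Trap1 rose by 1.25-fold to 1.63-fold. Among the cytosolic genes only Hspa4l, an Hsp110-family nucleotide exchange factor for Hsp70, passed the test, and the classical stress-inducible genes Hspa1a, Hspa1b, Dnajb1, Hspb1 and Bag3 did not.

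Counted over the 42 genes, 5 were called higher and 0 were called lower at an adjusted p under 0.05 (edgeR quasi-likelihood test, Benjamini-Hochberg over all genes), and 37 were not called. The 5 calls compare with 11.4% of all genes tested that were called in either direction, 4.32% called higher and 7.12% called lower. Of all 13451 genes tested, 3497 had an unadjusted p under 0.05 in edgeR, and 1701 of them were higher. Of the 42 genes, 15 were higher and 1 was lower at that p, and DESeq2 and limma-voom also called 0 lower. The fitted change was above 0 for 34 genes and below 0 for 8, with a median of 0.13 on the log2 scale, against a median of 0.0056 and 50.9% above 0 among all genes tested. In 16 genes every CSE library lay above every PBS library, which happened in 15.1% of all genes tested, and in 1 gene (Hspa2) every CSE library lay below, which happened in 16.2%. These overlaps, and all values below in normalised CPM, use CPM of the TMM-scaled library size. Leaving out PBS replicate 1 gave 9 genes called higher, leaving out PBS replicate 3 or CSE replicate 1 gave 3, and leaving out CSE replicate 2 or replicate 3 gave 2, and across other settings it lay between 2 and 9.

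**Figure D2:**
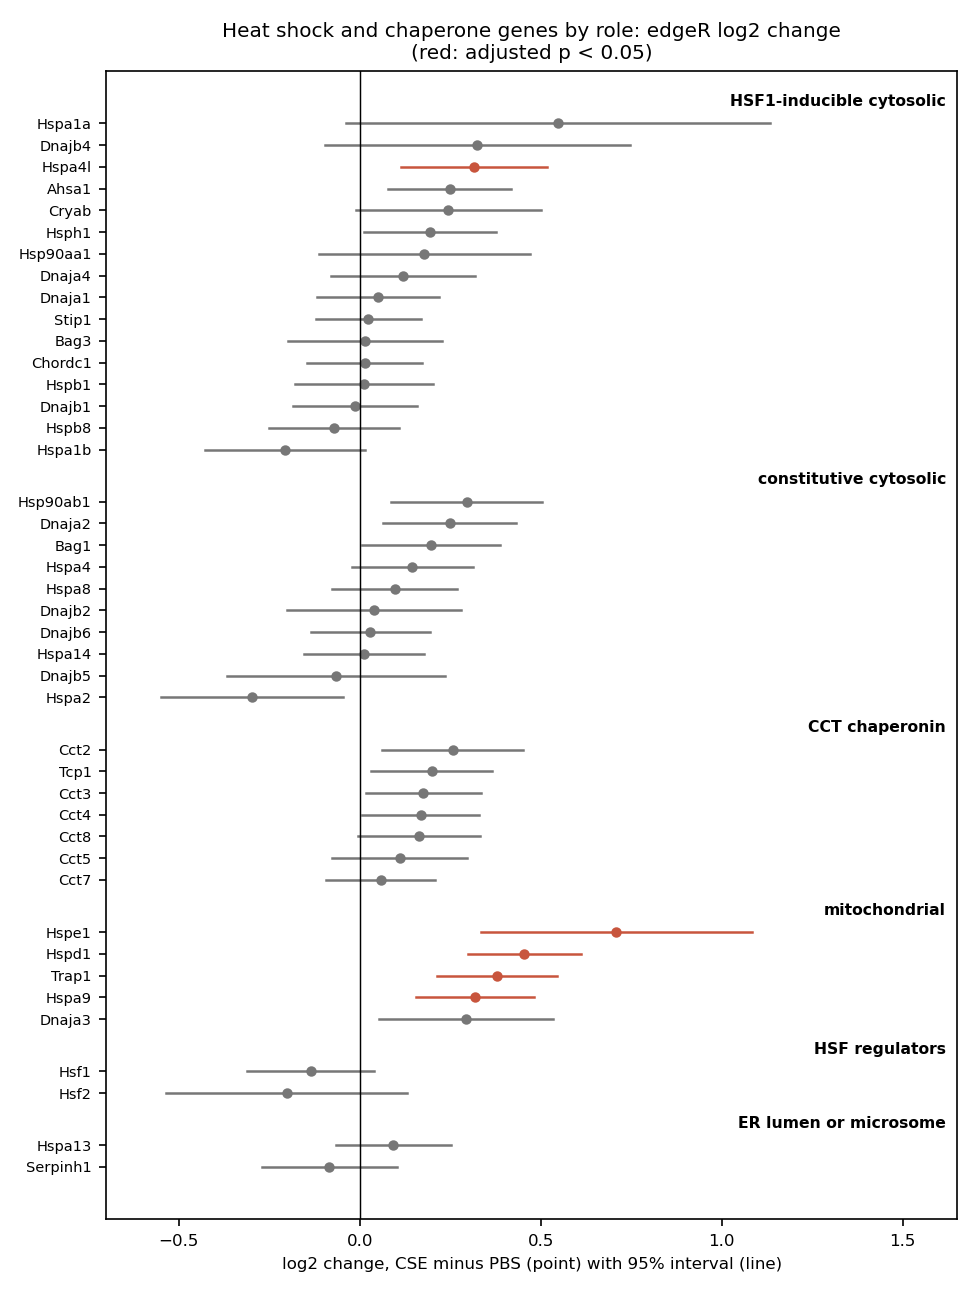
Log2 change of CSE against PBS from edgeR for the 42 genes, grouped by role, with points for the estimate and lines for the 95% interval (red for an adjusted p under 0.05). All 5 mitochondrial genes lie at or above 0.29, while most cytosolic genes lie between 0 and 0.30.

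Mitochondrial chaperones came first by size of change. Their 5 genes had a median log2 change of 0.38, 4 of 5 were called higher, and in 5 of 5 the CSE libraries all lay above the PBS libraries. Among all genes tested, 4.32% were called higher and 15.1% lay apart on the higher side. Summed over the 5 genes the libraries held 855, 835 and 885 TPM under PBS and 1108, 1107 and 1179 TPM under CSE, that is 858 ± 24.8 against 1131 ± 41.4 (SD, n = 3). For the 37 genes outside mitochondria the median was 0.096, 1 was called higher, and 11 lay apart on the higher side. The difference between these groups of genes was not tested.

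Hspd1 encodes Hsp60, the barrel of the mitochondrial folding chamber. It lies at chr1:55077835-55088243 on the minus strand (GRCm38). Its normalised CPM was 491, 511 and 531 under PBS and 681, 691 and 730.5 under CSE. Every CSE value exceeded every PBS value by a wide margin compared with the spread inside each group. The log2 change was 0.45 ± 0.07 (SE, 95% interval 0.30 to 0.61), a 1.37-fold increase, with an adjusted p of 0.0018 in edgeR. Transcripts of other genes hold 55.8% of the 31-base words of its main transcript, most of them in the pseudogene Hspd1-ps3, to which only 12 counts (PBS) and 11 counts (CSE) were assigned in all.

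Hspe1 encodes Hsp10, the lid of that chamber, at chr1:55088132-55091307 on the plus strand, head to head with Hspd1. Its normalised CPM was 99.3, 71.4 and 68.9 in PBS and 102, 125 and 162 in CSE. CSE replicate 1 exceeded PBS replicate 1 only narrowly, and the values of a group spread more widely than for the other mitochondrial genes. With a log2 change of 0.71 ± 0.17 (95% interval 0.33 to 1.08) it had the largest estimate of the 42 genes and an adjusted p of 0.0213 in edgeR. The call was lost in DESeq2 (adjusted p 0.0547) and in edgeR when PBS replicate 2 (0.0576) or replicate 3 (0.108) or CSE replicate 2 (0.0589) or replicate 3 (0.0873) was left out. Over all 20 settings its adjusted p ranged from 1.2e-13 with no filter on low counts to 0.108.

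Hspe1 has a short transcript, and its level in each library was set beside those of other short transcripts (the plot of deviations by library). Relative to the PBS mean, the log2 level of Hspe1 was 0.33, -0.14 and -0.19 for PBS replicates 1 to 3 and 0.38, 0.67 and 1.04 for CSE replicates 1 to 3. The median of 74 cytosolic ribosomal protein genes was 0.34, -0.24 and -0.11 in PBS and 0.079, 0.32 and 0.73 in CSE. PBS replicate 1 and CSE replicate 3 were the highest of their groups in both measures, while CSE replicate 1 lay above every PBS library in Hspe1 and below PBS replicate 1 in the ribosomal protein genes. Among 1729 genes with a main transcript under 1000 bases the median was 0.077, -0.031 and -0.049 in PBS and -0.00006, 0.10 and 0.19 in CSE. The part of this pattern in the Hspe1 result was not tested. With a GC and length trend removed from each library the log2 change of Hspe1 was 0.64 with an adjusted p of 0.0095 in edgeR. That step used GC and length only, and the ribosomal protein medians were not computed after it, so it cannot decide that part. The same deviations of Hspd1 were -0.057, 0.00088 and 0.056 in PBS and 0.41, 0.43 and 0.52 in CSE.

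**Figure D3:**
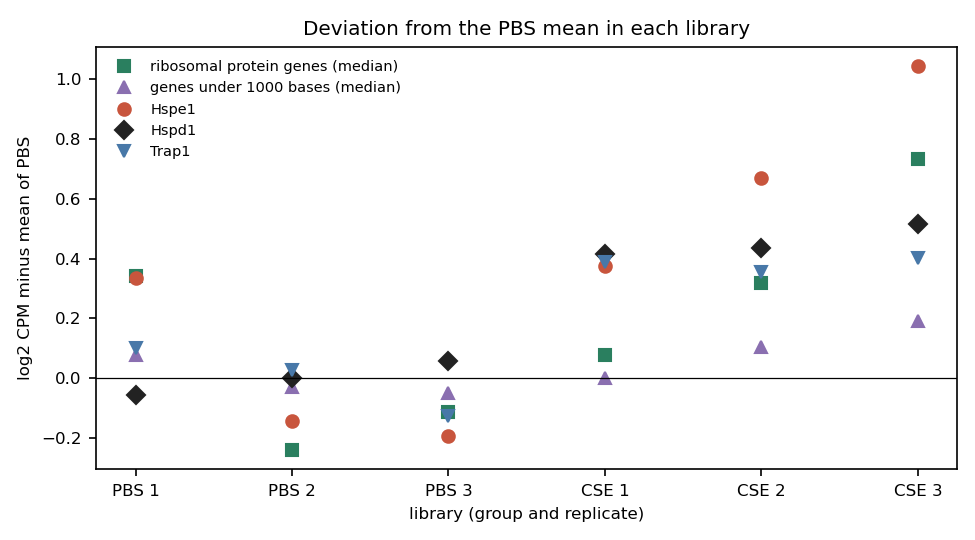
Log2 CPM minus the mean of the PBS libraries, for each library, for Hspe1, Hspd1 and Trap1 and as medians for ribosomal protein genes and for genes with a main transcript under 1000 bases. Hspe1 and the ribosomal protein genes climb to 1.04 and 0.73 in CSE replicate 3, whereas Trap1 stays between 0.35 and 0.40 in the 3 CSE libraries.

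Hspa9 encodes mortalin, the mitochondrial Hsp70 that drives protein import. Its normalised CPM was 292, 266 and 298 in PBS and 369.7, 339 and 359.6 in CSE, with no overlap. The log2 change was 0.32 ± 0.07 and the adjusted p 0.0188 in edgeR. Leaving out any single CSE library ended the call in edgeR, with adjusted p-values of 0.0931, 0.0515 and 0.0806 for CSE replicates 1, 2 and 3, in a range of 0.0020 to 0.157 over all 20 settings.

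Trap1 encodes the mitochondrial Hsp90 (chr16:4039971-4077827, minus strand). It stood at 127, 121 and 109 normalised CPM in PBS and at 156, 152 and 157 in CSE, and the CSE libraries were nearly level with each other. The log2 change was 0.38 ± 0.07, a 1.30-fold increase, with an adjusted p of 0.0078 in edgeR. Only 1.05% of the words of its main transcript occur in other genes. Hspd1 and Trap1 were called in all 20 alternative settings, with adjusted p-values up to 0.0276 and 0.0427.

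Dnaja3 encodes Tid1, the mitochondrial J-domain protein that delivers substrates to mortalin. It stood at 34.7, 27.7 and 36.4 normalised CPM in PBS and at 40.2, 37.5 and 43.3 in CSE, so the groups did not overlap. Its log2 change of 0.29 ± 0.11 did not pass the test (adjusted p 0.114 in edgeR). It was 0.18 without PBS replicate 2 and 0.16 with the most abundant transcript only.

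**Figure D4:**
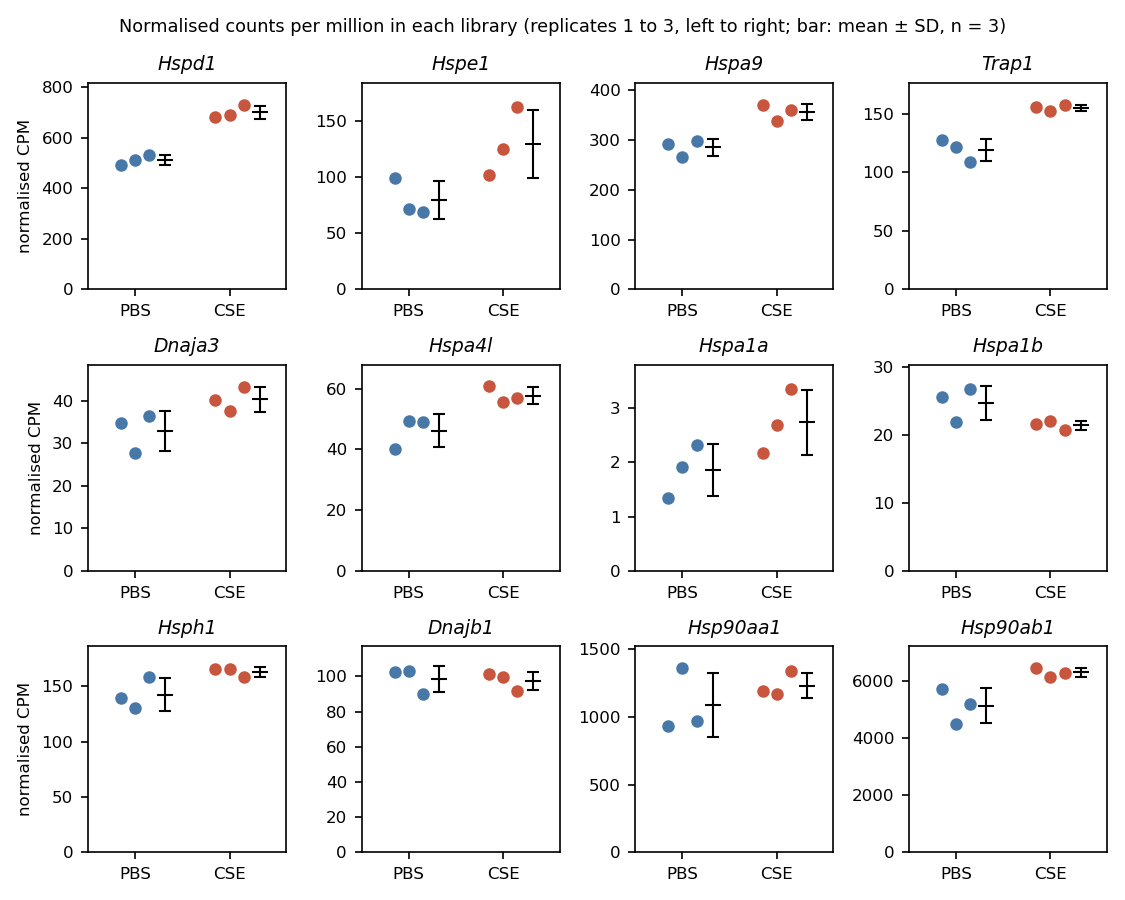
Normalised CPM in each library for 12 of the genes (blue PBS, red CSE, replicates 1 to 3 from left to right, bars for the mean ± SD, n = 3), with axes from 0. In the panels of Hspd1, Hspe1, Hspa9, Trap1, Dnaja3, Hspa4l and Hsp90ab1 all red points lie above all blue points, and in those of Hspa1a, Hspa1b, Hsph1, Dnajb1 and Hsp90aa1 they overlap.

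The folding chamber needs its barrel and lid together, so their balance within a library was examined. The ratio of Hspd1 to Hspe1 in TPM was 1.26, 1.71 and 1.97 in PBS and 1.63, 1.39 and 1.17 in CSE. With means of 1.647 ± 0.36 and 1.395 ± 0.23 the groups overlapped, and a two-sided exact permutation test gave p = 0.4 (0.8 adjusted over 2 ratios), where 3 against 3 libraries cannot give less than 0.1.

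Hspd1 and Hspe1 share the DNA between their starts, and the heat shock element there is the longest found wholly upstream of a start among the genes examined. Counted over whole windows, which reach past the start, Chordc1 held more matches, as given below. The element of Hspd1 and Hspe1 is shown with those of Dnajb6 and of the Hspa1 genes because the genes that carry them did not move alike. RefSeq windows (GRCm38.p6, from 250 bases before to 50 bases after each start) were used for 34 of the 42 genes, giving 47 windows. Those of Hsp90aa1, Hsp90ab1, Hspa8, Hspa9, Hspa13, Cryab, Cct4 and Hsf1 were not analysed here. In each line the bases are 5′ to 3′ on the strand of the gene, and capitals mark GAA and TTC units that alternate with 2 bases between them.
Hspe1: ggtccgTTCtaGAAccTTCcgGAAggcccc
Hspd1: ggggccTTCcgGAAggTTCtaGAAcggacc
Dnajb6: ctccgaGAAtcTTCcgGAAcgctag
Hspa1a: ctgctgGAAgaTTCctggcc
Hspa1b: ctgctgGAAgaTTCctggcc

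The stretch of Hspe1 (chr1:55088053-55088082, plus strand) has 4 units, 72 to 89 bases before its start, and that of Hspd1 is the same DNA read on the minus strand, 127 to 144 bases before a start of Hspd1. It also falls inside the annotated bounds of Hspd1. The 3 units of Dnajb6 (chr5:29735846-29735870, plus strand) lie before the starts of a gene whose log2 change was 0.03 ± 0.07 (adjusted p 0.845 in edgeR). Hspa1a (chr17:34972247-34972266) and Hspa1b (chr17:34959329-34959348), both on the minus strand, carry the same 2 units 97 to 104 bases before their starts.

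Both strands of all 32851 RefSeq promoter windows were searched for the same letters. A pair of units (GAANNTTC or TTCNNGAA, which overlap in longer runs) occurred in 15.1% of all windows and in 17 of the 47 windows of these genes, from 15 genes. A run of at least 3 units occurred in 0.603% of all windows and in 7 of 47 windows, from Hspd1, Hspe1, Dnajb6, Hsph1 and Chordc1. These windows repeat some DNA: those of Dnajb6 overlap each other, as do those of Hsph1, and Hspd1 and Hspe1 share the same bases. By gene, 5 of 34 held such a run, beside 179 of all 27025 genes with a window. No pair of units from the runs of Hsph1 and Chordc1 lay wholly before a start, and those runs are not shown. The window of Chordc1 held 3 matches to a run of 3 units and 5 to a pair, against 2 and 3 in that of Hspe1. Among the HSF1-inducible genes 10 of the 14 with a window held a pair, beside 4587 of all 27025 genes with a window. Of the 5 genes with a run of 3 units, Hspd1 and Hspe1 rose, and Hsph1 (0.19), Dnajb6 (0.03) and Chordc1 (0.01) were not called. The core TGATGNAA of the amino acid response element, bound by ATF4 and CHOP dimers, was found in 3.97% of all windows. It was found in 1 of the 47 windows, that of Hspa14. The core TGACNNNGC of the antioxidant response element, bound by NRF2, was found in 12.4% of all windows. It was found in 9 of the 47 windows, some of which overlap. These came from 7 genes, none of them called, beside 3781 of all 27025 genes with a window. A match describes letters in a window, and nothing follows from it about binding.

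The 16 HSF1-inducible cytosolic genes as a group changed little. Their median log2 change was 0.085, 13 were above 0, and 1 was called higher and 0 lower. Of the 16, 3 had an unadjusted p under 0.05 in edgeR, and in 3 the CSE libraries lay above the PBS libraries. Among all 13451 genes tested, 4.32% were called higher, 3497 had such a p, and in 15.1% the CSE libraries lay above. The 16 genes summed to 1966 ± 115 TPM under PBS and 1993 ± 35.6 TPM under CSE. Their median log2 change came down to 0.0032 with limma on log2(TPM + 1). On that scale the median of all genes was -0.061, against 0.0056 in the main fit.

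Of the inducible Hsp70 genes, Hspa1b stood at 25.6, 21.9 and 26.8 normalised CPM in PBS and at 21.6, 22.0 and 20.7 in CSE. Its CSE libraries lay at the lower end of the PBS range and overlapped it, and its log2 change of -0.21 ± 0.10 was not called (adjusted p 0.222 in edgeR). Hspa1a stood at 1.35, 1.91 and 2.32 normalised CPM in PBS and at 2.17, 2.69 and 3.36 in CSE, on 98 and 146 counts in all. Those groups overlapped as well, and the estimate of 0.55 ± 0.27 had a wide 95% interval of -0.04 to 1.13 (adjusted p 0.223 in edgeR). The counts of these genes are uncertain, because 63.8% of the words of Hspa1a occur in Hspa1b and kallisto divides such reads by a model. Taken as a sum, which does not depend on that division, they stood at 27.0, 23.8 and 29.1 normalised CPM in PBS and 23.7, 24.7 and 24.0 in CSE, and the groups overlapped.

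Hspa4l stood at 40.1, 49.5 and 49.0 normalised CPM in PBS and at 60.7, 55.6 and 56.9 in CSE. All CSE libraries were higher, PBS replicate 1 was the lowest library, and the log2 change was 0.32 ± 0.09 with an adjusted p of 0.0490 in edgeR, just inside the threshold. The call held in 7 of 20 settings, was lost in limma-voom (0.0519) and was lost in edgeR when PBS replicate 1 (0.0768) or replicate 3 (0.0763) or CSE replicate 1 (0.142), replicate 2 (0.110) or replicate 3 (0.113) was left out, in a range of 0.0019 to 0.416. Its relative Hsph1, the stress-inducible Hsp110, stood at 139, 130.1 and 159 normalised CPM in PBS and at 165, 166 and 158 in CSE. Those groups overlapped, and its log2 change of 0.19 ± 0.08 was not called (adjusted p 0.163 in edgeR).

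Hsp90aa1, the inducible cytosolic Hsp90, stood at 934, 1359.9 and 971 normalised CPM in PBS and at 1191, 1166 and 1339 in CSE. PBS replicate 2 was the highest of all 6 libraries, so the groups overlapped and the log2 change of 0.18 ± 0.13 was not called (adjusted p 0.429 in edgeR). Without that library the log2 change was 0.37 with an adjusted p of 0.0161, the only setting of 20 in which it was called (range 0.0161 to 0.741). The log2 change was 0.086 without PBS replicate 1, 0.10 without PBS replicate 3 and 0.12 without CSE replicate 3. Its co-chaperone Ahsa1, which speeds the Hsp90 ATPase, stood at 60.8, 53.2 and 61.8 normalised CPM in PBS and at 68.5, 68.5 and 71.7 in CSE. The groups were apart, and its log2 change was 0.25 ± 0.08 (adjusted p 0.0644 in edgeR). The Hsp70-Hsp90 adaptor Stip1 and the Hsp90 co-chaperone Chordc1 had log2 changes of 0.02 ± 0.07 and 0.01 ± 0.07.

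The small heat shock proteins hold unfolded clients in a soluble state. Hspb1, at 140, 120 and 121 normalised CPM in PBS and 116, 133 and 133 in CSE, had a log2 change of 0.01 ± 0.09. Hspb8 changed by -0.07 ± 0.08 and its partner Bag3, an adaptor for chaperone-assisted autophagy, by 0.01 ± 0.10. Neither of these nor Cryab, the alpha-crystallin B chain, was called. Cryab had an estimate of 0.25 ± 0.12 with overlapping groups.

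J-domain proteins hand clients to Hsp70. Dnajb1, or Hsp40, is a standard marker of HSF1 activity, and it stood at 102, 103 and 89.96 normalised CPM in PBS and at 101, 99.8 and 91.7 in CSE. Its log2 change was -0.01 ± 0.08 with a 95% interval of -0.18 to 0.16 (adjusted p 0.939 in edgeR). Dnaja1 (0.05 ± 0.08), Dnaja4 (0.12 ± 0.09) and Dnajb4 (0.32 ± 0.19) were not called either. Dnaja4 is uncertain because 52.2% of the words of its main transcript occur in Wdr61.

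The 10 constitutive cytosolic genes had a median log2 change of 0.069, which turned to -0.010 with limma on log2(TPM + 1) and was 0.032 without PBS replicate 3 and 0.11 without PBS replicate 1. None was called in edgeR or limma-voom, and DESeq2 called 1, Hsp90ab1. In edgeR 4 had an unadjusted p under 0.05, beside 3497 of all 13451 genes tested. In 3 of the 10 genes the CSE libraries lay above the PBS libraries and in 1 below. Among all genes tested these shares were 15.1% and 16.2%. The 10 genes summed to 6796 ± 322 TPM in PBS and 7369 ± 447 TPM in CSE.

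Hsp90ab1 stood at 5692, 4485 and 5187 normalised CPM in PBS and at 6452, 6134 and 6274 in CSE. The groups were apart, the PBS libraries spread more widely than the CSE libraries, and the log2 change was 0.30 ± 0.09 with an adjusted p of 0.0725 in edgeR. In DESeq2 the adjusted p was 0.0156, and without PBS replicate 1 it was 0.0123 in edgeR, in a range of 0.0073 to 0.271 over all settings. The balance of the inducible and the constitutive Hsp90 in TPM, Hsp90aa1 to Hsp90ab1, was 0.142, 0.260 and 0.163 in PBS and 0.159, 0.164 and 0.184 in CSE. Those ratios overlapped, and a two-sided exact permutation test gave p = 0.9 (0.9 adjusted over 2 ratios, smallest possible 0.1). Leaving out PBS replicate 2 turned the log2 difference of the ratio from -0.11 to 0.15.

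Hspa8 stood at 2663, 2627 and 2357 normalised CPM in PBS and at 2815, 2651 and 2711 in CSE, with overlap, and its log2 change was 0.10 ± 0.08 (adjusted p 0.475 in edgeR). Of the words of its main transcript 89.5% occur in other genes, mostly in Gm15459, which received 50087 counts in PBS and 57880 in CSE beside 129720 and 142342 for Hspa8. Its level is therefore uncertain. Dnaja2, a J-domain partner of Hsc70, had a log2 change of 0.25 ± 0.08 (adjusted p 0.0839 in edgeR) and Hspa4, a constitutive Hsp110, of 0.15 ± 0.08 (adjusted p 0.255 in edgeR). In both genes the groups were apart on the higher side.

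Hspa2, an Hsp70 best known from spermatogenesis, was the only gene of the 42 whose CSE libraries all lay below the PBS libraries. It stood at 41.6, 30.2 and 35.3 normalised CPM in PBS and at 27.1, 29.98 and 29.5 in CSE. PBS replicate 2 barely exceeded CSE replicate 2, and the log2 change of -0.30 ± 0.11 was not called (adjusted p 0.123 in edgeR). Without PBS replicate 2 it was -0.41 with an adjusted p of 0.0251, in a range of 0.0251 to 0.862, without PBS replicate 1 it was -0.17, and with the most abundant transcript only it was -0.051. The nucleotide exchange factor Bag1 had an estimate of 0.20 ± 0.09 (adjusted p 0.179 in edgeR). The ribosome-associated Hspa14 (0.01 ± 0.07), Dnajb2 (0.04 ± 0.11), Dnajb5 (-0.07 ± 0.14) and Dnajb6, a suppressor of protein aggregation, stayed within 0.07 of 0.

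CCT is a ring-shaped chamber that folds actin and tubulin, and 7 of its subunit genes were among the 42. All 7 had estimates above 0, from 0.06 to 0.26, with a median of 0.17 that came down to 0.062 with limma on log2(TPM + 1). None was called in edgeR or limma-voom, and DESeq2 called 1, Cct2. In edgeR 4 had an unadjusted p under 0.05, beside 3497 of all 13451 genes tested. In 5 of 7 genes the CSE libraries lay above the PBS libraries, beside 15.1% of all genes tested. In Cct5 and Cct7 the groups overlapped. The summed level was 3302 ± 83.9 TPM in PBS and 3475 ± 67.2 TPM in CSE.

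Cct2 had the largest estimate of the subunits. It stood at 599, 512 and 489.9 normalised CPM in PBS and at 628, 614 and 672 in CSE. PBS replicate 1 was close to the CSE libraries, and the log2 change was 0.26 ± 0.09 (adjusted p 0.0895 in edgeR, 0.0448 in DESeq2, range 0.0110 to 0.300). Tcp1, the alpha subunit, stood at 584.5, 589.9 and 528 normalised CPM in PBS and at 631, 641 and 682 in CSE, with a log2 change of 0.20 ± 0.08 (adjusted p 0.1204 in edgeR). Cct3 (0.18 ± 0.07), Cct4 (0.17 ± 0.07) and Cct8 (0.16 ± 0.08) had estimates close to each other, while Cct5 (0.11 ± 0.08) and Cct7 (0.06 ± 0.07) were smaller. The intervals of all 7 subunits overlapped.

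The heat shock factors were not called, and at an unadjusted p under 0.05 there were 0 of 2 in edgeR and 0 of 2 called in DESeq2 or limma-voom. Hsf1, the main activator of the response, stood at 69.5, 82.6 and 73.1 normalised CPM in PBS and at 69.2, 70.2 and 65.8 in CSE, with a log2 change of -0.14 ± 0.08 (adjusted p 0.314 in edgeR). Hsf2, which forms mixed trimers with HSF1, changed by -0.20 ± 0.15 (adjusted p 0.436 in edgeR). As background, HSF1 activity is controlled mainly at the level of the protein. Of the genes for proteins in the endoplasmic reticulum, Serpinh1, the collagen chaperone Hsp47, changed by -0.08 ± 0.08 and Hspa13 by 0.09 ± 0.07, neither called.

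The 5 called genes differed in how firmly they held (the plot of estimates by setting). The estimates stayed above 0 in every setting, from 0.37 to 0.48 for Hspd1, 0.29 to 0.44 for Trap1, 0.24 to 0.35 for Hspa9, 0.52 to 0.90 for Hspe1 and 0.23 to 0.48 for Hspa4l. The calls held in 20, 20, 13, 13 and 7 of 20 settings.

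**Figure D5:**
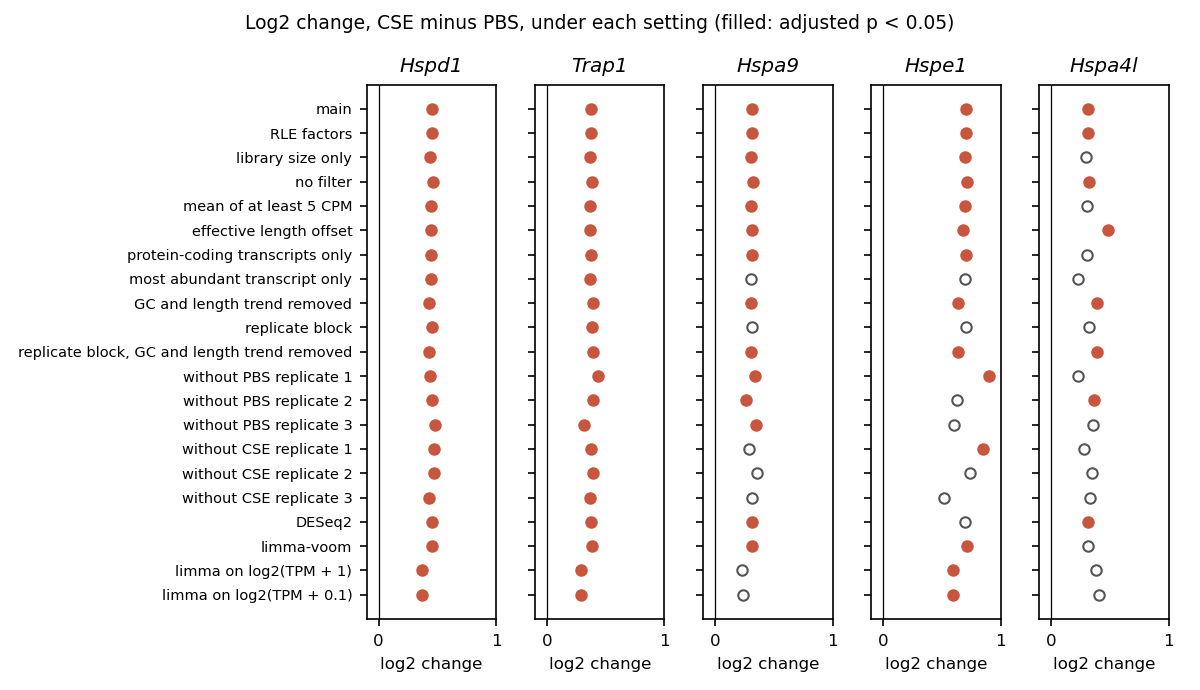
Log2 change of CSE against PBS for the 5 called genes in the reported fit (top, "main") and in 20 alternative settings, with filled points for an adjusted p under 0.05 and open points otherwise. Hspd1 and Trap1 are filled throughout, and Hspa4l is open in 13 of the 20 alternatives.

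Partner genes from 4 further lists were read from the same fit. Of 25 co-chaperones of Hsp70 and Hsp90, 2 were called higher and 1 lower, and the median log2 change was 0.017, beside 11.4% of all genes tested that were called. Bag2, a nucleotide exchange factor that inhibits the ubiquitin ligase CHIP, stood at 108, 105 and 104 normalised CPM in PBS and 145, 129 and 131 in CSE, a log2 change of 0.36 ± 0.07 (adjusted p 0.0081 in edgeR). Dnajc2, a ribosome-associated J-domain protein also called zuotin, rose by 0.40 ± 0.10 (adjusted p 0.0265 in edgeR). Fkbp5, the Hsp90-bound immunophilin and classical glucocorticoid target, stood at 77.7, 70.6 and 79.3 normalised CPM in PBS and 61.3, 57.4 and 60.6 in CSE, a log2 change of -0.34 ± 0.07 (adjusted p 0.0111 in edgeR). With PBS replicate 3 left out the adjusted p of Fkbp5 was 0.0534 in edgeR, and with CSE replicate 2 or replicate 3 left out it was 0.0788 and 0.0501, in a range of 0.0033 to 0.0788. Without CSE replicate 1 that of Bag2 was 0.0515, in a range of 0.00096 to 0.124, and that of Dnajc2 was 0.108 with PBS replicate 3 left out and 0.0633 and 0.118 with CSE replicate 2 or replicate 3 left out, in a range of 0.00011 to 0.122.

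Of 16 partners and proteases of the mitochondrial chaperones, 2 were called higher and 0 lower, also 0 lower in DESeq2 and limma-voom, with a median of 0.11. At an unadjusted p under 0.05 in edgeR there were 6, all higher. Among all 13451 genes tested, 4.32% were called higher, and 1701 genes were higher at such a p. Dnajc19, a J-domain protein of the import motor, stood at 9.004, 8.66 and 9.09 normalised CPM in PBS and 11.5, 13.4 and 13.8 in CSE, a log2 change of 0.54 ± 0.12 (adjusted p 0.0129 in edgeR). Hscb, the J-domain protein of iron-sulfur cluster assembly, had an estimate of 0.62 ± 0.17 (adjusted p 0.0361 in edgeR), and its CSE replicate 1 at 16.2 lay just below PBS replicate 1 at 16.7. Both calls were lost without CSE replicate 2 or CSE replicate 3 (0.0699 and 0.0673 for Dnajc19, 0.137 and 0.147 for Hscb, in edgeR). That of Hscb was also lost without PBS replicate 2 (0.0869) or PBS replicate 3 (0.147), and the adjusted p-values ranged from 0.0019 to 0.0699 for Dnajc19 and from 1.4e-05 to 0.147 for Hscb. The exchange factor of mortalin, Grpel1, changed by 0.05 ± 0.07 and the matrix proteases Lonp1 and Clpp by 0.04 ± 0.08 and 0.22 ± 0.09, none of them called. Atf5, a transcription factor linked to the mitochondrial unfolded protein response, had an estimate of 0.54 ± 0.16 that was not called (adjusted p 0.0592 in edgeR).

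Prefoldin and other partners of CCT, 9 genes tested of 10 listed, had 0 calls in edgeR, DESeq2 or limma-voom and 0 genes with an unadjusted p under 0.05, with a median of 0.086. The subunit gene Cct6a is not analysed here. Among 6 tested of 9 other small heat shock and Hsp70-like genes, 1 was called, beside 11.4% of all genes tested. That gene, Hspb6 or Hsp20, stood at 47.3, 45.3 and 39.3 normalised CPM in PBS and 56.3, 56.2 and 51.7 in CSE. Its log2 change was 0.32 ± 0.09 (adjusted p 0.0370 in edgeR). The call of Hspb6 was lost in edgeR when PBS replicate 3 (0.137) or CSE replicate 1 (0.118), replicate 2 (0.149) or replicate 3 (0.0669) was left out, in a range of 0.0092 to 0.231.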

How the data were processed

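Each deposited file lists 118489 transcripts with, per the file headers, an effective length, an estimated count and a TPM value. TPM is the authors' count per effective length scaled to a fixed library sum. The submitters' processing notes name FastQC 0.12.1, fastp 0.20.1, kallisto 0.46.2, DESeq2 1.40.2 and GRCm38; index, strand setting and trimming: not given in the sources used here.

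GENCODE vM21 identifiers matched 116816 transcripts. The 1673 others held 0.638% to 0.664% of the counts per library and were not used. Estimated counts deposited by the authors were then summed per gene and rounded, and TPM was summed. edgeR 4.0.16 (R 4.3.3) compared 3 CSE with 3 PBS libraries by a two-sided quasi-likelihood test with filterByExpr (minimum count 10), TMM factors, treatment as the only term, Benjamini-Hochberg adjustment and a threshold of 0.05. SE is the log2 change over the root of F. The coefficient of variation between libraries of a group, as the root of the common dispersion in edgeR, was 9.17%. Libraries of a group differed beyond counting noise (chi-square over degrees of freedom 5.61 to 17.6). The steps were tested on simulated data with 100 changed genes. Of those changed 1.5-fold 74% were recovered, and of those changed 2-fold 92%, with 4.05% false among the calls. Changes under 1.5-fold were not simulated, so how often they would be called is not known. A gene that was not called is therefore not shown to be unchanged.

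As alternatives, DESeq2 1.42.0, limma-voom (limma 3.58.1), RLE factors, scaling by library size, limma on log2(TPM + 1) or log2(TPM + 0.1) (mean of 1 TPM or more), no filter, a mean of at least 5 CPM, an effective length offset, coding or most abundant transcripts only, a GC and length trend removed by loess (span 0.5), the replicate number as a block, and each library left out were run. Words were 31 bases long. RefSeq supplied the promoter windows. The members and lists were chosen with earlier results of these data known. Named partner genes were up to 3 called genes in each direction per list; Grpel1, Lonp1, Clpp, Atf5 and Cct6a were named after their values were seen. A further list of partner genes is not reported here.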

Additional observations from a re-analysis of the deposited data

How the results depend on the processing

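Adjusted p-values near the threshold moved with single libraries. Over all genes tested, 581 were higher and 958 lower, and the counts higher were 1054 with no filter, 235 with the most abundant transcript only, 882 with the GC and length trend removed, 224 with limma on log2(TPM + 1) and 220.0 with limma on log2(TPM + 0.1), while 452 were lower with the most abundant transcript only. With 1 library left out, 281 to 967 were higher and 554 to 981 lower. Of the 42 heat shock and chaperone genes, 5 were called higher, against 9 with no filter, 2 with the most abundant transcript only, 3 with limma on log2(TPM + 1), 3 with limma on log2(TPM + 0.1) and 2 to 9 with 1 library left out. Lower calls were 1 (Hspa2) with no filter and 0 to 1 with 1 library left out, and the same 0 to 1 held for the constitutive group.

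Of the HSF1-inducible genes 1 was called higher, against 0 with library size only, 0 with a mean of at least 5 CPM, 2 with the effective length offset, 0 with protein-coding transcripts only, 0 with the most abundant transcript only, 0 with limma-voom, 0 with either limma fit on TPM and 0 to 2 with 1 library left out. Constitutive genes called higher were 1 with library size only, 2 with no filter, 1 with DESeq2 and 0 to 3 with 1 library left out. CCT genes called higher were 1 with no filter, 1 with DESeq2 and 0 to 1 with 1 library left out. Mitochondrial genes called higher were 2 with the most abundant transcript only and 2 to 4 with 1 library left out. Of the partner genes 5 were called higher, against 10 with no filter, 3 with the effective length offset, 1 with the most abundant transcript only, 10 with the GC and length trend removed, 3 with either limma fit on TPM and 1 to 11 with 1 library left out, and 0 to 1 were lower with 1 library left out.

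With the replicate number as a block, 331 genes were higher over all genes tested, 2 of the 42 genes (Hspd1 and Trap1), 0 of the HSF1-inducible genes, 2 of the mitochondrial genes and 2 of the partner genes. Whether libraries of the same number were handled together is not stated. Deviations of same-numbered libraries from their group means correlated by -0.124, 0.0061 and -0.0594 across genes. With 3 libraries in each group, these values cannot decide whether the numbers pair the libraries.

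Medians moved most on the TPM scale. There the median log2 change of all genes was -0.061 (pseudocount 1) and -0.065 (pseudocount 0.1), against 0.0056 in the main fit. The medians with these pseudocounts were 0.046 and 0.047 for the 42 genes, 0.0032 and 0.0043 for the HSF1-inducible genes and -0.010 and -0.010 for the constitutive genes. They were 0.062 and 0.062 for CCT, and 0.29 and 0.29 for the mitochondrial genes. The inducible median was 0.040 with a mean of at least 5 CPM, 0.12 with the GC and length trend removed and 0.12 with the replicate block and that trend removed.

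Of 587 values of the 42 genes under 14 settings that kept all libraries, 529 kept direction and side of the threshold, 15 lost the call, 9 gained one and 34 changed sign. The changed signs were all in genes without a call: Hspb1 (-0.00075 with library size only, -0.0083 with the effective length offset, -0.085 with either limma fit on TPM), Dnaja1 (-0.029 with either limma fit), Dnajb1 (0.041 with the GC and length trend removed, 0.043 with the block besides), Bag3 (-0.064 and -0.065 with the limma fits), Chordc1 (-0.00099 with library size only, -0.034 with the effective length offset, -0.0074 with the most abundant transcript only, -0.11 and -0.12 with the limma fits), Stip1 (-0.059 with either limma fit), Hspa8 (-0.0064 with either), Hspa14 (-0.0022 with library size only, -0.043 with the trend removed, -0.042 with the block besides, -0.056 and -0.057 with the limma fits), Dnajb2 (-0.055 and -0.058 with the limma fits), Dnajb5 (0.0075 with the effective length offset), Dnajb6 (-0.039 with the trend removed, -0.033 with the block besides, -0.014 with either limma fit), Cct3 (-0.17 with the most abundant transcript only) and Cct7 (-0.055 with either limma fit). The cause was not tested. With 1 library left out, log2 changes ran from -0.029 to 0.093 for Hspb1, -0.14 to 0.0096 for Hspb8, -0.077 to 0.033 for Dnajb1, -0.092 to 0.078 for Bag3, -0.027 to 0.046 for Chordc1, -0.0052 to 0.055 for Stip1, -0.026 to 0.075 for Hspa14, -0.015 to 0.15 for Dnajb2, -0.15 to 0.042 for Dnajb5 and -0.022 to 0.093 for Dnajb6. The log2 ratio of Hsp90aa1 to Hsp90ab1 ran from -0.29 to 0.15.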

Other observations

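Transcripts with a mean share of at least 5% of their gene's TPM in either group and a mean of at least 0.5 TPM were compared over the 42 genes, and the shares of 10 of 85 such transcripts, from 6 genes (Bag1, Dnaja3, Dnajb6, Hsp90ab1, Hspa2 and Hspa4), did not overlap between groups. None of the 6 was called as a gene in edgeR. Shares over all other genes were not analysed here, so these counts have no background. The 3 genes below were chosen after their values were seen and are given without a test. Dnajb6 makes a long nuclear and a short cytosolic protein. Its transcript Dnajb6-201 (2918 bases) took 32.2%, 34.6% and 35.5% of the gene's TPM under PBS and 28.4%, 29.5% and 28.0% under CSE, and Dnajb6-203 (1605 bases) took 57.7%, 53.3% and 53.3% in PBS and 62.7%, 63.3% and 64.0% in CSE. The groups were apart for both transcripts. Of the words of Dnajb6-203, 43.8% occur in other genes. In Dnaja3 the transcript Dnaja3-201 (2648 bases) took 20.4%, 20.5% and 21.1% in PBS and 27.1%, 29.6% and 25.7% in CSE, while Dnaja3-202 (2505 bases) took 76.8%, 76.7% and 77.6% in PBS and 70.7%, 69.5% and 73.4% in CSE. In Hspa2 the transcript Hspa2-201 (2524 bases) took 27.4%, 17.9% and 13.4% in PBS and 0.0%, 0.00054% and 11.6% in CSE, and Hspa2-202 (2526 bases) took the rest. These shares rest on kallisto's division of reads between transcripts that share most of their sequence, and the part of that division in these values was not tested.

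A second transcript accounts for part of the Hspa8 level: Hspa8-209, a processed transcript of 727 bases, took 22.2% ± 1.46 of the gene's TPM in PBS and 20.7% ± 0.74 in CSE (SD, n = 3). By contrast, Hspd1, Hspe1, Hspa9 and Trap1 came almost wholly from 1 protein-coding transcript each, with non-coding transcripts at 0 for Hspd1 and at or below 1.52% of TPM for the others in either group.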
